A study of Drosophila melanogaster with 34 samples.

Results

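The 13 sites described here are the guide-directed 2′-O-methylated nucleotides of 5.8S rRNA and of the 5′ part of 28S rRNA in Drosophila melanogaster. They were taken from the 72 rRNA positions listed for every library as those that carry at least 1 guide RNA gene identifier and are either 5.8S Gm74 or a 28S site numbered 2000 or lower, with 28S Gm789 left out. The choice used names and numbers only, and no measured value. The letters A, C, G in a site name give the base, m marks the methyl group, and the number is the position on the mature rRNA as the tables name it; genome coordinates of these rRNA positions were not used here. The other listed positions were 26 guided 28S sites above 2000, 19 guided 18S sites, 28S Gm789 and 13 sites with no guide gene listed.

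2′-O-methylation adds a methyl group to the ribose of a nucleotide, and in eukaryotic rRNA most of it is placed by box C/D small nucleolar ribonucleoproteins. The snoRNA of such a particle pairs with the rRNA and so picks the nucleotide, at a fixed distance from its box D or D′, while Fibrillarin (Fib in the fly) is the shared methyltransferase; 1 snoRNA can direct more than 1 site. 5.8S rRNA is base-paired with the 5′ part of 28S rRNA in the large ribosomal subunit.

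Methylation was read by RiboMeth-seq. RNA is broken by alkaline hydrolysis, a 2′-O-methyl group protects the bond 3′ of its ribose, and a methylated position shows few fragment ends compared with its neighbours. The deposited scoreC2, called the methylation score below, approaches 1 where nearly no ends are found. Beside it the tables give 5′ read ends, 3′ read ends and the coverage of each site.

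The 34 libraries fall into 9 groups. S2R+ cells, an embryo-derived Drosophila cell line that the labels describe as mesenchymal stem cells, gave 4 libraries with Fib knockdown and 4 with LacZ knockdown; both came from double-stranded RNA, and LacZ is a bacterial gene with no fly target. The other 26 libraries came from heads of female flies, whose strain the labels do not give; for age they hold at most the prefix d17 in the titles of the oxidative-stress libraries, whose meaning they do not state. The oxidative-stress experiment compared 8 days on 5% sucrose with 2.5 nM paraquat, an herbicide that drives superoxide production (3 libraries, paraquat heads), with 8 days on 5% sucrose alone (3 libraries, sucrose heads). Heads of flies kept for 8 days in darkness at 18, 25 or 29 °C gave 4 libraries each. The nutrition experiment set 10 days on food labelled as 0.25x sugar without a.a. (4 libraries, low-nutrient heads) against 10 days on 1x home-made food (4 libraries, 1x heads). The tables hold rRNA sites only, so neither the cell type nor the loss of Fib RNA could be checked against marker genes here.

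Coverage at the 13 sites lay between 20926 and 355472 reads. Over all 442 member values, 13 sites in 34 libraries, the methylation score ran from 0.612 to 0.999. None of the 5′ end counts and 2 of the 3′ end counts stood at the placeholder of 0.1 that marks no read end; both were at 28S Am1347 in the oxidative-stress experiment. Library numbers fall into 4 runs, which served as library sets. Set A held replicates 1 and 2 of Fib and LacZ knockdown, set B replicates 3 and 4, set C the oxidative-stress heads and set D the temperature and nutrition heads. The labels do not state whether replicates are independent cultures or flies; the p-values below therefore weigh differences against the scatter of these libraries, which may be technical. Read ends differed by more than sampling noise in each of the 48 pairs of libraries from 1 group.

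Several neighbouring sites have guides in common. The 13 sites list 24 guide gene identifiers, none of which the reference gene table names, and no identifier is also listed at any of the other 59 positions. Of the 24 identifiers, 8 stand at more than 1 of the 13 sites. 28S Am796 and 28S Am799, 3 nucleotides apart, share 1 guide. 28S Gm1108 and 28S Am1117, 9 nucleotides apart, share 4, which is every guide listed for Am1117 and 4 of the 5 listed for Gm1108. 28S Am1691 shares 1 guide with 28S Cm1679, 12 nucleotides before it, and 2 with its direct neighbour 28S Gm1692. The remaining 6 sites share none. 5.8S Gm74, 28S Am1017 and 28S Am1347 each list 1 guide of their own, 28S Cm813 and 28S Am1007 list 2, and 28S Gm1005 lists 4. By base, 7 sites are A, 4 are G and 2 are C. Members with a common guide share their source and are not independent replicates of one another. No guide or rRNA sequence was among the material used here, so none is printed.

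In heads and in LacZ knockdown cells nearly all 13 sites were close to fully protected. 28S Am1347 held the highest mean score in every group except Fib knockdown cells, and the gap to the next site was larger than the larger of their SDs in all 7 head groups and smaller in LacZ knockdown cells. It averaged 0.998 in paraquat heads, 0.998 in sucrose heads, 0.997 at 18 °C, 0.997 at 25 °C, 0.997 at 29 °C, 0.997 on low-nutrient food and 0.997 on 1x food (SD 0.00055 to 0.00094). Its ends were very few: with paraquat the 3 libraries had 12, 10 and 3 5′ ends at a coverage of 96746, 76944 and 67298, against 6, 7 and 8 5′ ends at 99565, 74287 and 112818 in sucrose heads.

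28S Am796 and 28S Am799 had, after Am1347, the most even group means. Am796 averaged 0.990 in paraquat heads, 0.992 in sucrose heads, 0.988 at 18 °C, 0.989 at 25 °C, 0.991 at 29 °C, 0.988 on low-nutrient food and 0.990 on 1x food (SD 0.00063 to 0.0034). Am799 averaged 0.990 in paraquat heads, 0.992 in sucrose heads, 0.990 at 18 °C, 0.991 at 25 °C, 0.991 at 29 °C, 0.990 on low-nutrient food and 0.991 on 1x food (SD 0.0015 to 0.0041). The spread between the lowest and the highest head group mean was 0.00439 at Am796 and 0.00266 at Am799, against 0.00154 at Am1347. 28S Am1017 averaged 0.987 in paraquat heads, 0.988 in sucrose heads, 0.989 at 18 °C, 0.988 at 25 °C, 0.984 at 29 °C, 0.977 on low-nutrient food and 0.985 on 1x food (SD 0.0012 to 0.022). Its wide SD came from 1 low-nutrient library, given with that experiment.

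5.8S Gm74 and the 3 sites from 1679 to 1692 had, like Am796, their highest head mean in sucrose heads and their lowest at 18 °C. Gm74 averaged 0.991 in paraquat heads, 0.992 in sucrose heads, 0.974 at 18 °C, 0.983 at 25 °C, 0.989 at 29 °C, 0.985 on low-nutrient food and 0.985 on 1x food (SD 0.00063 to 0.0074). 28S Cm1679 averaged 0.989 in paraquat heads, 0.989 in sucrose heads, 0.979 at 18 °C, 0.980 at 25 °C, 0.987 at 29 °C, 0.985 on low-nutrient food and 0.985 on 1x food (SD 0.0011 to 0.0054). Both had means below 0.985 at 18 and 25 °C and above it at 29 °C. 28S Am1691 averaged 0.992 in paraquat heads, 0.994 in sucrose heads, 0.978 at 18 °C, 0.979 at 25 °C, 0.988 at 29 °C, 0.992 on low-nutrient food and 0.984 on 1x food (SD 0.00036 to 0.0075). For its neighbour 28S Gm1692 the means were 0.991 in paraquat heads, 0.994 in sucrose heads, 0.981 at 18 °C, 0.982 at 25 °C, 0.988 at 29 °C, 0.985 on low-nutrient food and 0.986 on 1x food (SD 0.00041 to 0.0091). Sucrose heads and heads at 18 °C belong to different experiments and different library sets, so experiment and library set cannot be told apart in that order.

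The remaining 5 sites were 28S Gm1005, 28S Am1117, 28S Gm1108, 28S Am1007 and 28S Cm813. Gm1005 averaged 0.981 in paraquat heads, 0.982 in sucrose heads, 0.933 at 18 °C, 0.981 at 25 °C, 0.983 at 29 °C, 0.979 on low-nutrient food and 0.983 on 1x food (SD 0.0018 to 0.094). The low mean and wide SD at 18 °C come from replicate 3 alone, which scored 0.792 where the others scored 0.979 to 0.980. That library had 1032 3′ ends and 9 5′ ends at the site, against 212 to 329 and 40 to 66 in the other 3 at 18 °C. Am1117 averaged 0.975 in paraquat heads, 0.976 in sucrose heads, 0.981 at 18 °C, 0.977 at 25 °C, 0.979 at 29 °C, 0.979 on low-nutrient food and 0.978 on 1x food (SD 0.0015 to 0.010).

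28S Gm1108 and 28S Am1007 had lower means in both groups of the oxidative-stress experiment than in any other head group. Gm1108 averaged 0.948 in paraquat heads, 0.949 in sucrose heads, 0.968 at 18 °C, 0.969 at 25 °C, 0.975 at 29 °C, 0.960 on low-nutrient food and 0.973 on 1x food (SD 0.0016 to 0.011). Am1007 averaged 0.948 in paraquat heads, 0.936 in sucrose heads, 0.965 at 18 °C, 0.965 at 25 °C, 0.970 at 29 °C, 0.953 on low-nutrient food and 0.970 on 1x food (SD 0.00095 to 0.015). Every oxidative-stress library scored 0.957 or less at Gm1108, and at Am1007 every one scored 0.955 or less. Replicate 4 of the low-nutrient heads also lay below these limits, at 0.944 and 0.931, so single libraries of the experiments overlap. 28S Cm813 had its 2 highest means in that experiment, with averages of 0.963 in paraquat heads, 0.961 in sucrose heads, 0.938 at 18 °C, 0.914 at 25 °C, 0.936 at 29 °C, 0.957 on low-nutrient food and 0.929 on 1x food (SD 0.0031 to 0.020). It was the least methylated member, or next to it, in all head groups but the 2 of the oxidative-stress experiment, and in heads at 25 and 29 °C and on 1x food the gap to the next site exceeded the larger SD. Experiment, library set and treatment cannot be told apart in these differences between experiments.

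Ordered by mean score within a group, many neighbouring sites did not differ beyond their spread, least so in sucrose heads. Of the 12 gaps between neighbours, 1 exceeded the larger of the 2 SDs with Fib knockdown and 0 with LacZ knockdown. In heads the number was 5 with paraquat, 7 with sucrose alone, 4 at 18 °C, 4 at 25 °C, 5 at 29 °C, 1 on low-nutrient food and 5 on 1x food. Coverage differed between sites: it was lowest at 28S Am796, Am799 and Cm813, with 20926 to 93416 reads over all libraries, and highest at 5.8S Gm74, with 106817 to 355472.

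**Figure D1:**
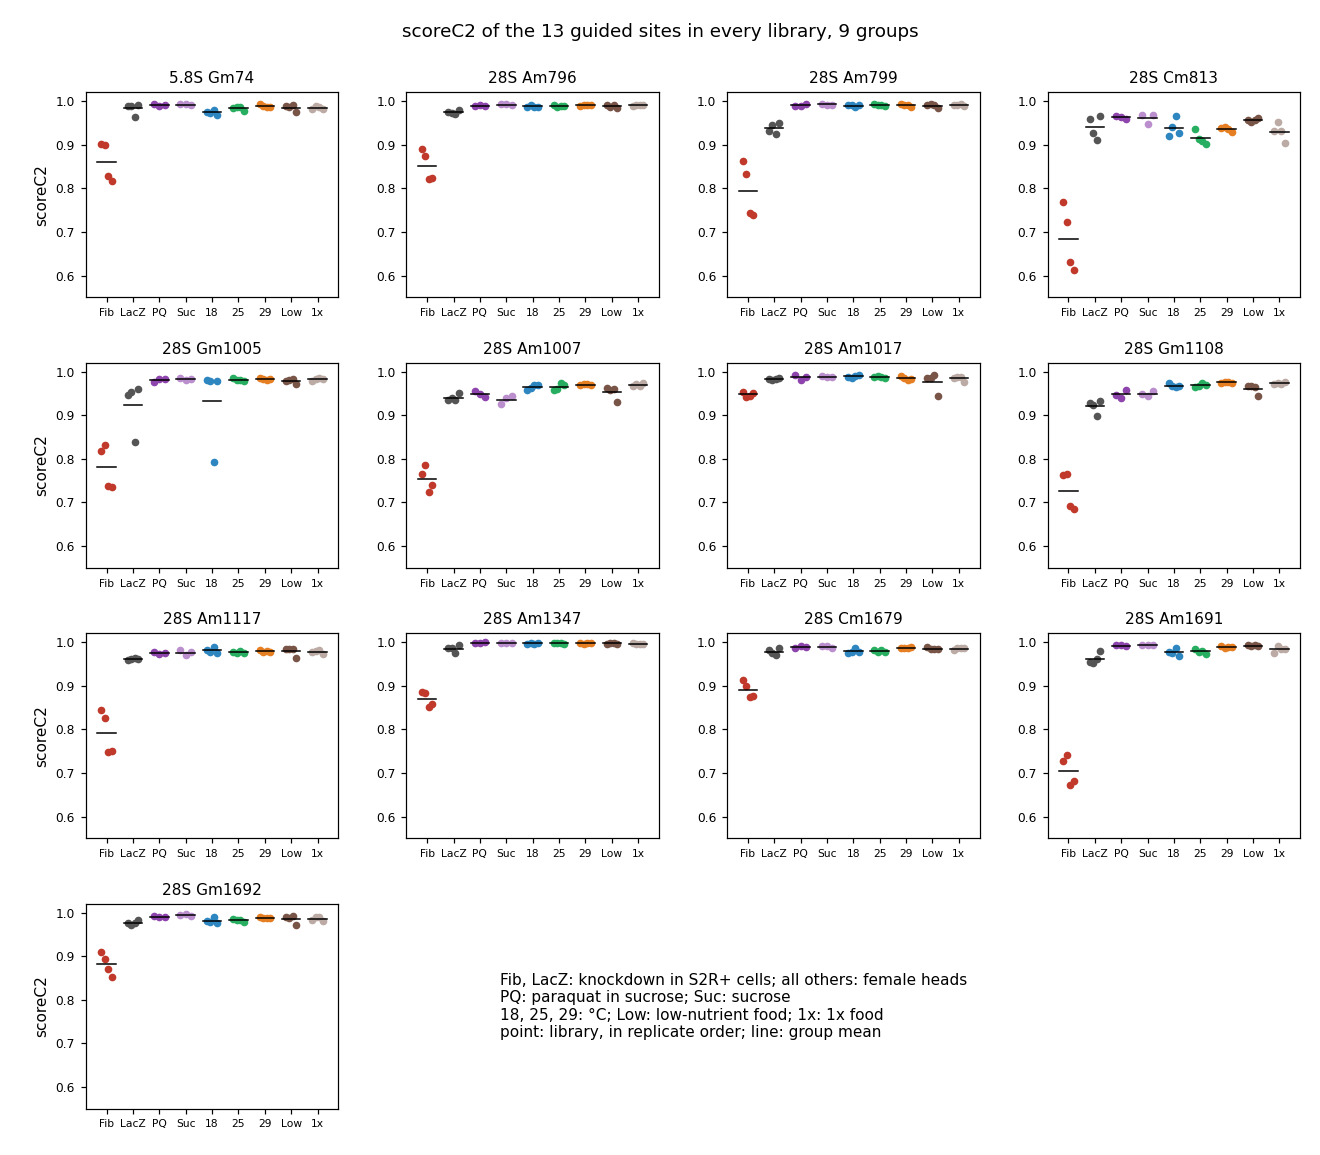
Methylation score (scoreC2, vertical axis, same scale in each panel) of the 13 sites in every library, by group (horizontal axis); points are libraries and short lines group means. At all 13 sites the 4 Fib knockdown libraries lie below the 4 LacZ knockdown libraries, and among heads 28S Cm813 has the lowest group mean (0.914 at 25 °C), while at 28S Gm1005 a single library, replicate 3 at 18 °C, lies low (0.792).

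**Figure D2:**
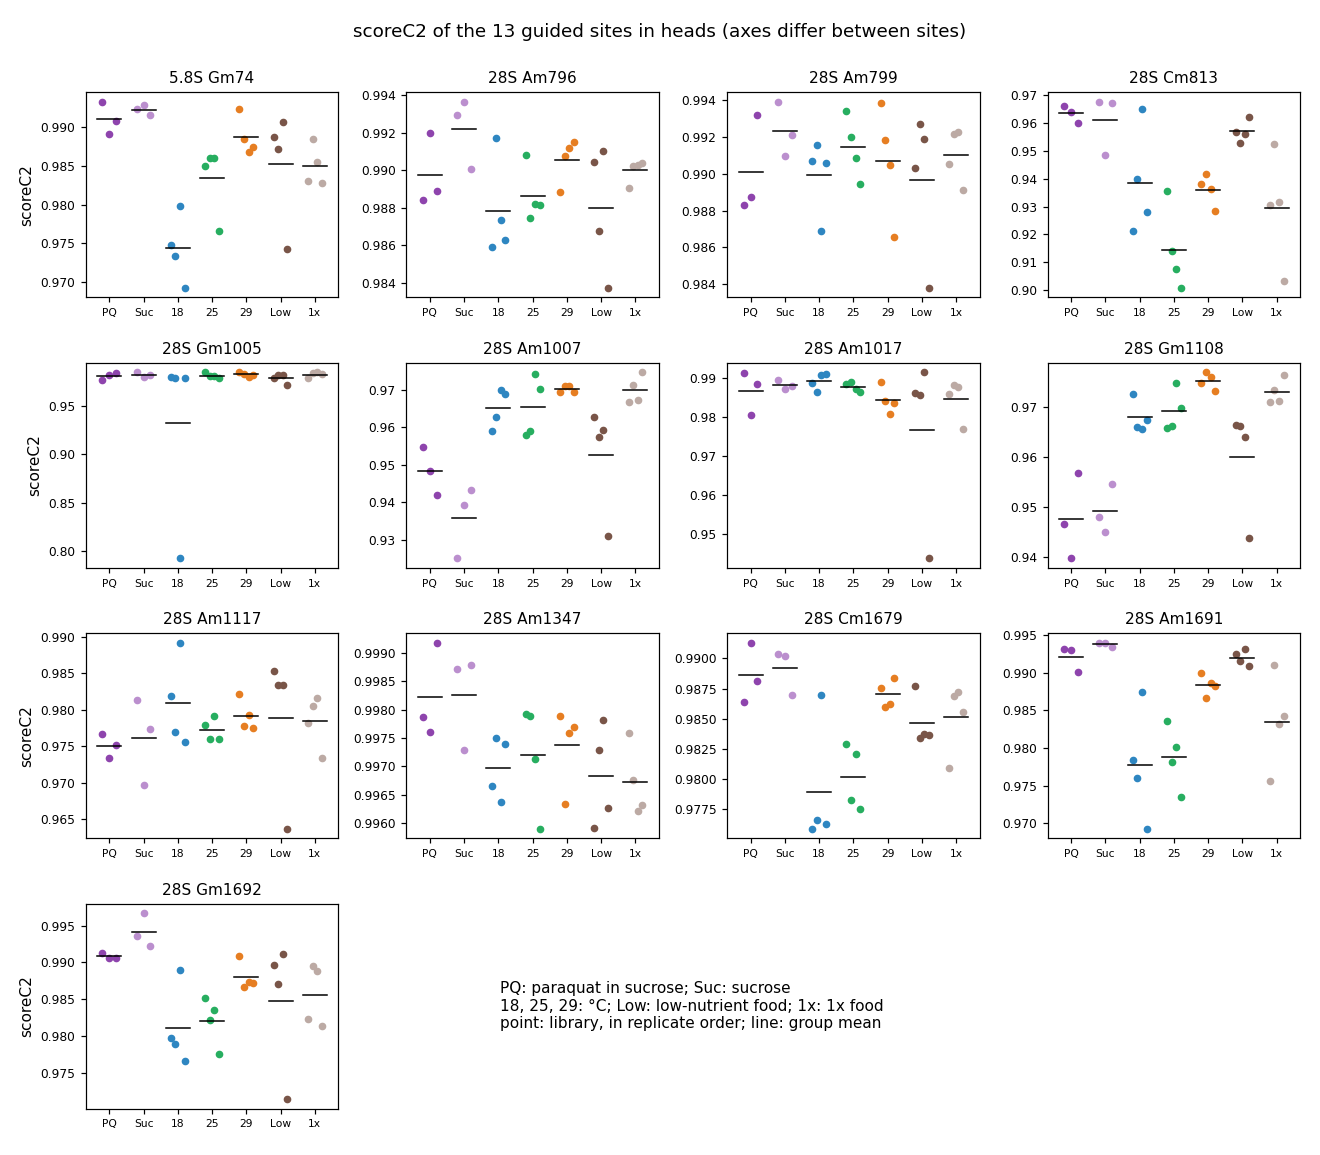
The same methylation scores in the 7 head groups only, with a separate vertical axis for each site; points are libraries and short lines group means. The axes differ in span: 28S Am1347 lies between 0.996 and 0.999, and 28S Cm813 between 0.901 and 0.968.

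The 2 kinds of read end were not evenly divided. At 28S Am1347 the 5′ ends outnumbered the 3′ ends in 34 of 34 libraries. At 5.8S Gm74, 28S Cm813, 28S Am1017, 28S Gm1108 and 28S Am1117 they did so in 0 of 34. Over the libraries Gm1108 had a median of 13 5′ ends and 321 3′ ends, and Cm813 had 9 and 149. The 5′ ends were the more numerous in 28 of the libraries at 28S Am796 and in 29 at 28S Cm1679, and in 2 to 11 of them at the other 5 sites.

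Deposited methylation scores were lower with Fib knockdown than with LacZ knockdown at all 13 sites, 8 of which change sign when libraries are centred on their medians. At each site every Fib knockdown library was below every LacZ knockdown library on the deposited scale. The background is high: 80.6% of the 72 listed positions were lower in this comparison, and at 79.2% the groups did not overlap. The difference, Fib minus LacZ knockdown, ran from -0.0353 score units at 28S Am1017 to -0.256 at 28S Cm813 and -0.256 at 28S Am1691. The median difference over the 13 sites was -0.142, against -0.143 over all listed positions. Adjusted p-values, from limma over all 72 positions with Benjamini-Hochberg adjustment, lay between 2.56e-05 and 0.00569. The fall is on the scale of the score as deposited: when each library was centred on its median over the listed positions, which itself differed by -0.145 between Fib and LacZ knockdown, 5 of the 13 sites were lower, 5 were higher and 3 did not pass. Centring subtracts the change that most positions share, and 80.6% of them were lower. It therefore cannot tell a common fall from an offset of whole libraries, and ranks the sites against the typical position.

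In 5.8S rRNA, Gm74 scored 0.902, 0.898, 0.828 and 0.817 with Fib knockdown and 0.990, 0.989, 0.964 and 0.991 with LacZ knockdown, so the Fib knockdown libraries all lay lower, replicates 1 and 2 near 0.9 and replicates 3 and 4 near 0.82. The difference was -0.122 (95% interval -0.173 to -0.0705). Its read ends per 1000 reads of coverage averaged 16.1 ± 4.7 with Fib knockdown and 1.85 ± 1.3 with LacZ knockdown (SD, n = 4 each). The log2 difference in read ends, 3.30, was the largest of the 13.

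The first 28S group spans positions 796 to 813. 28S Am796 scored 0.890, 0.875, 0.821 and 0.823 with Fib knockdown and 0.975, 0.973, 0.969 and 0.981 with LacZ knockdown, a difference of -0.122. 28S Am799, with 1 guide in common with Am796, scored 0.863, 0.833, 0.743 and 0.740 with Fib knockdown and 0.931, 0.944, 0.923 and 0.950 with LacZ knockdown, a difference of -0.142. At both sites replicates 3 and 4 of the Fib knockdown were lower than replicates 1 and 2. 28S Cm813 scored 0.768, 0.724, 0.631 and 0.612 with Fib knockdown and 0.958, 0.928, 0.910 and 0.965 with LacZ knockdown; its difference of -0.256 had a wide interval (-0.341 to -0.172). Read ends per 1000 of coverage averaged 19.5 ± 4.9 with Fib knockdown and 3.62 ± 0.66 with LacZ knockdown at Am796, and 14.2 ± 3.8 against 2.23 ± 0.95 at Cm813. At Am799 they averaged 22.3 ± 5.2 with Fib knockdown and 7.44 ± 1.6 with LacZ knockdown, the smallest relative increase of the 13 (log2 1.58). Am799 already had the second most ends of the 13 in LacZ knockdown cells.

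Positions 1005 to 1017 hold 3 sites with no guide in common. 28S Gm1005 scored 0.818, 0.831, 0.738 and 0.734 with Fib knockdown and 0.946, 0.952, 0.838 and 0.959 with LacZ knockdown. LacZ replicate 3 stood apart, with 876 3′ ends against 149 to 230 in the other LacZ libraries, yet still lay above every Fib knockdown library. The difference was -0.143, and -0.172 without that library. 28S Am1007, 2 nucleotides away, scored 0.765, 0.787, 0.724 and 0.739 with Fib knockdown and 0.934, 0.940, 0.934 and 0.952 with LacZ knockdown, a difference of -0.186. 28S Am1017 scored 0.954, 0.942, 0.945 and 0.950 with Fib knockdown and 0.982, 0.981, 0.984 and 0.985 with LacZ knockdown, a difference of -0.0353 (95% interval -0.0513 to -0.0194). Am1017 thus kept the highest score of the 13 under Fib knockdown, and its gap to the next site, 0.0566, was the only 1 of 12 such gaps in that group beyond the larger SD. The interval for Am1017 overlaps none of the other 12 intervals. In ends per 1000 of coverage Am1017 averaged 2.88 ± 0.23 with Fib knockdown and 0.888 ± 0.16 with LacZ knockdown, a log2 difference of 1.71, so that its relative increase was within the range of the other sites.

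28S Gm1108 and 28S Am1117 share 4 guides, and the intervals of their differences overlap. Gm1108 scored 0.762, 0.765, 0.692 and 0.685 with Fib knockdown and 0.928, 0.924, 0.899 and 0.933 with LacZ knockdown, a difference of -0.195. Am1117 scored 0.844, 0.825, 0.749 and 0.751 with Fib knockdown and 0.959, 0.962, 0.964 and 0.961 with LacZ knockdown, a difference of -0.169, and the groups do not overlap at either site. The 95% intervals were -0.246 to -0.144 at Gm1108 and -0.224 to -0.115 at Am1117. Gm1108 had the most ends of the 13 in LacZ knockdown cells, 7.46 ± 2.0 per 1000 of coverage, and 24.97 ± 2.8 with Fib knockdown. At Am1117 the ends averaged 13.05 ± 2.1 with Fib knockdown and 2.52 ± 0.28 with LacZ knockdown.

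28S Am1347, with 1 guide of its own, scored 0.886, 0.884, 0.852 and 0.858 with Fib knockdown and 0.987, 0.986, 0.975 and 0.992 with LacZ knockdown. The difference was -0.115. Its 5′ ends were 354, 449, 886 and 999 with Fib knockdown and 43, 52, 146 and 51 with LacZ knockdown, while its 3′ ends were 8, 8, 24 and 8 with Fib knockdown and 4, 5, 5 and 5 with LacZ knockdown. The gain of ends at this site was thus almost wholly in 5′ ends, with a log2 difference in both ends of 3.25.

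The last group spans positions 1679 to 1692. 28S Cm1679 scored 0.913, 0.900, 0.875 and 0.876 with Fib knockdown and 0.981, 0.975, 0.970 and 0.986 with LacZ knockdown, a difference of -0.0871. 28S Am1691 scored 0.728, 0.740, 0.672 and 0.682 with Fib knockdown and 0.953, 0.952, 0.961 and 0.980 with LacZ knockdown, a difference of -0.256 (95% interval -0.297 to -0.215). Its direct neighbour 28S Gm1692 scored 0.910, 0.894, 0.871 and 0.852 with Fib knockdown and 0.976, 0.973, 0.975 and 0.984 with LacZ knockdown, a difference of -0.0953 (95% interval -0.127 to -0.0638). These adjacent nucleotides share 2 guides, and their intervals do not overlap, the fall at Am1691 being the deeper. In read ends per 1000 of coverage Am1691 averaged 25.3 ± 5.0 with Fib knockdown and 3.08 ± 0.97 with LacZ knockdown. Gm1692 averaged 11.6 ± 3.3 with Fib knockdown and 2.06 ± 0.43 with LacZ knockdown, and Cm1679 4.92 ± 0.94 against 1.06 ± 0.29. The log2 differences were 3.09, 2.48 and 2.24 for Am1691, Gm1692 and Cm1679. A score that compares a site with its neighbours can be affected by a methylated neighbour, and since neighbouring positions were not analysed here the part this plays was not tested.

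**Figure D3:**
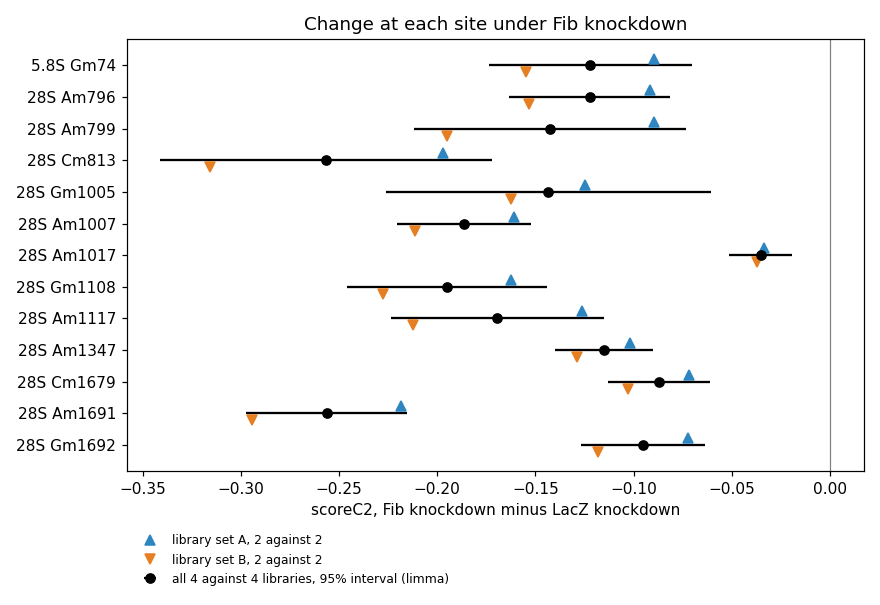
Difference in methylation score between Fib and LacZ knockdown cells (horizontal axis, score units) for each site; black points are the means over 4 against 4 libraries with limma's 95% interval, and triangles the same difference within library sets A and B (2 against 2). All points lie below 0, from -0.0353 at 28S Am1017 to -0.256 at 28S Cm813. With libraries centred on their medians, which themselves differ by -0.145, 8 of the 13 sites change sign. These medians are taken over all listed positions, of which 80.6% were lower, so centring subtracts a fall that most positions share.

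Read ends per 1000 of coverage were higher with Fib knockdown at all 13 sites, where 83.3% of all listed positions were higher. The log2 differences lay between 1.58 and 3.30, with a median of 2.36 against 2.01 over all positions and limma adjusted p-values between 2.31e-06 and 0.00106. With 3′ ends alone 12 of the 13 passed, the exception being 28S Gm1005 (limma, adjusted p = 0.185), the site with the divergent LacZ library; with 5′ ends alone all 13 passed. Read ends and score come from the same reads and are not independent. The order of the sites by read ends differed from the order by score: Spearman's rho between the 2 changes was -0.0659 over the 13 sites. Pearson's r, with the score change linear and the read-end change in log2, was -0.239. Both describe sites that share libraries.

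**Figure D4:**
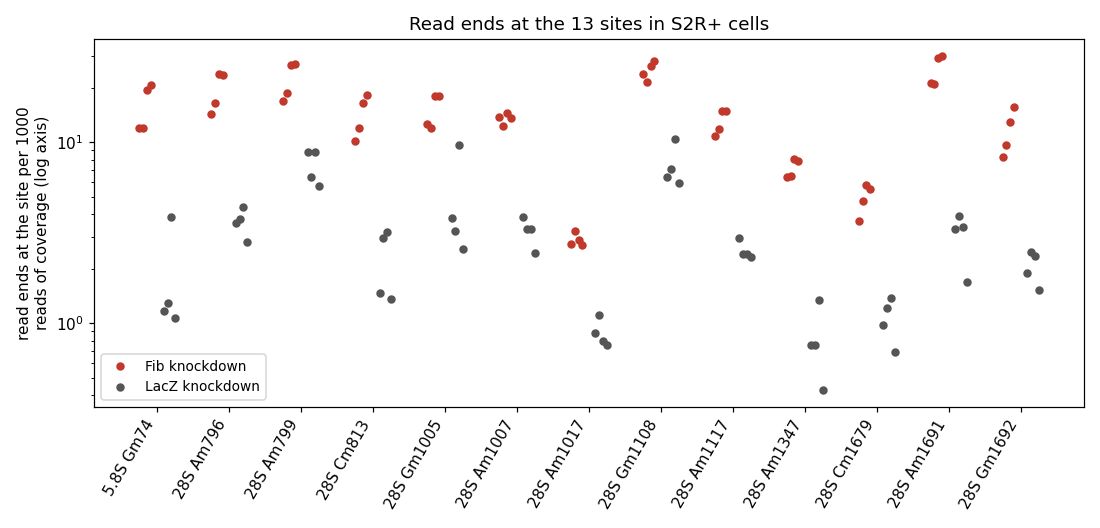
Read ends at each site (5′ plus 3′) per 1000 reads of coverage, on a log axis, in the 4 Fib knockdown and the 4 LacZ knockdown libraries. The groups are apart at all 13 sites; at 28S Gm1005 the nearest LacZ library reaches 9.62 and all 4 Fib knockdown libraries lie above it.

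The fall held in each of the 2 cell library sets and differed in size between them. In set A it lay between -0.0334 and -0.219, and in set B between -0.0373 and -0.316. All 13 sites passed within each set. Both sets stood in a common fit and share its estimate of the spread, so these are not separate tests. The fall in set B was 1.12 to 2.18 times that in set A, with a median of 1.43. Tested as the interaction of knockdown and set, the fall was deeper in set B at 9 of the 13 sites, where 55.6% of all positions were. It was largest at 28S Cm813, where the Fib knockdown libraries averaged 0.746 in set A and 0.622 in set B while the LacZ libraries averaged 0.943 in set A and 0.937 in set B. The 4 sites that did not pass were 28S Gm1005, 28S Am1017, 28S Am1347 and 28S Cm1679. The count was 5 without LacZ replicate 2 and 12 without LacZ replicate 3. It was 1 on a log2 odds scale, and with centred libraries the difference was in the other direction at the 3 sites that passed. Knockdown depth and library set cannot be told apart here.

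The median difference with Fib knockdown was -0.142 over the 13, -0.246 over the 19 guided 18S sites, -0.145 over the 26 guided 28S sites above 2000 and -0.0110 over the 13 positions with no listed guide. Lower scores were called at 13 of 13, 17 of 19, 25 of 26 and 2 of 13 of these. The differences between these classes were not tested. 28S Gm789, 7 nucleotides before Am796, scored 0.665, 0.672, 0.631 and 0.598 with Fib knockdown and 0.882, 0.878, 0.890 and 0.936 with LacZ knockdown, and 28S Am2183, the first guided 28S site above 2000, scored 0.664, 0.669, 0.549 and 0.542 with Fib knockdown and 0.950, 0.953, 0.945 and 0.966 with LacZ knockdown. Both had lower Fib knockdown scores than Am796 and Gm1692, the members nearest to them.

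Some of the variation among the 13 falls went with the annotation and the level of the sites. The 5 sites with 1 listed guide had a median difference of -0.115 and the 8 sites with more had -0.178. Among the other guided positions the order was the opposite, -0.232 at 18 sites with 1 guide and -0.156 at 28 with more. By base, the medians were -0.142 at the 7 A sites, -0.133 at the 4 G sites and -0.172 at the 2 C sites. Sites with a higher mean score in control heads fell less: Pearson's r between the head level and the Fib knockdown difference was 0.646 and Spearman's rho 0.648 over 13 sites, which share libraries and, in part, guides. These splits were chosen after the values were seen and were not tested.

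In LacZ knockdown cells 10 of the 13 sites were lower than in control heads (sucrose, 25 °C and 1x heads, each group given equal weight), and 0 were higher. Over all 72 positions 68.1% were lower. The groups did not overlap at 6 of the 13, against 38.9% of all positions: 28S Am796, Am799, Gm1005, Gm1108, Am1117 and Am1347. The median difference was -0.0157 over the 13 and -0.0197 over all positions. No library set held both cells and heads, and cells against heads cannot be told apart from the library sets. With libraries centred on their medians, which differed by -0.0280 between cells and heads, 2 of the 13 (Am799 and Gm1108) were lower and 9 were higher. Here too centring subtracts the change that most positions share, 68.1% of them being lower.

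Am799 showed the clearest gap. It scored 0.931, 0.944, 0.923 and 0.950 in LacZ knockdown cells, against 0.994, 0.991 and 0.992 in sucrose heads, 0.993, 0.992, 0.991 and 0.989 at 25 °C and 0.991, 0.992, 0.992 and 0.989 on 1x food, so every cell library lay below every control head. The difference was -0.0544 (95% interval -0.0625 to -0.0463, limma adjusted p = 2.98e-08). Its partner Am796, 3 nucleotides away, differed by -0.0158. Gm1108 scored 0.928, 0.924, 0.899 and 0.933 in LacZ knockdown cells, against 0.948, 0.945 and 0.955 in sucrose heads, 0.966, 0.966, 0.975 and 0.970 at 25 °C and 0.971, 0.973, 0.971 and 0.977 on 1x food. Sucrose heads were the nearest to the cells, and the difference was -0.0427 with all 3 head groups. Am1117, which shares its guides, differed by -0.0157.

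The largest mean difference, -0.0583 at Gm1005, rests in part on LacZ replicate 3: without it the difference was -0.0297 (limma adjusted p = 4.04e-07). With all libraries the call at Gm1005 was lost when library set entered as a random block (adjusted p = 0.0618), when libraries were centred (0.0961) and against sucrose, 25 °C or 1x heads alone (0.141, 0.0899 and 0.0933). The remaining called sites were lower by less. Am1691 differed by -0.0237, Am1007 by -0.0170, Am1347 by -0.0123, Gm1692 by -0.0103 and Cm1679 by -0.00661. At 28S Am1007 the direction depended on the heads used, with 0.00424 against sucrose heads alone. Cm1679 no longer passed without LacZ replicate 3 (-0.00400, adjusted p = 0.142), nor when 1 of 6 other single libraries was left out, nor with the random block (adjusted p = 0.177), either other score or any single head group. The calls at Am1691 and Gm1692 were lost against 25 °C heads alone (adjusted p = 0.0529 and 0.185), and that at Gm1692 also against 1x heads alone (0.0781) and with 1 of the other scores (0.169). 5.8S Gm74 (-0.00344, interval -0.0125 to 0.00561), Cm813 (0.00511, interval -0.0183 to 0.0286) and Am1017 (-0.00397, interval -0.00840 to 0.000463) did not pass. 28S Am1017 passed, at -0.00484, without replicate 4 of the 1x heads.

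Between 29 and 18 °C, 3 of the 13 sites rose and 0 fell, where 19.4% of all positions were higher. Every library at 29 °C lay above every library at 18 °C at 3 of the 13, Gm74, Gm1005 and Gm1108. This held at 16.7% of all positions. 5.8S Gm74 scored 0.975, 0.973, 0.980 and 0.969 at 18 °C, 0.985, 0.986, 0.986 and 0.977 at 25 °C and 0.992, 0.989, 0.987 and 0.987 at 29 °C. The libraries at 29 °C all lay above those at 18 °C, while replicate 4 at 25 °C lay within the range of 18 °C and the other 3 above it. The difference between 29 and 18 °C was 0.0144 (95% interval 0.00828 to 0.0206, limma adjusted p = 0.00525). Its read ends per 1000 of coverage were 3.11, 3.40, 2.69 and 4.25 at 18 °C, 2.04, 1.86, 1.83 and 3.04 at 25 °C and 1.01, 1.51, 1.78 and 1.70 at 29 °C, again without overlap between 29 and 18 °C. Ends in heads were not tested. Gm74 was also the only 1 of the 13 to pass in the test of a slope over the 3 temperatures, 0.00131 score units per °C (adjusted p = 0.00248), where 15.3% of all positions passed with a positive slope.

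28S Cm1679 scored 0.976, 0.977, 0.987 and 0.976 at 18 °C, 0.983, 0.978, 0.982 and 0.977 at 25 °C and 0.988, 0.986, 0.986 and 0.988 at 29 °C. Replicate 3 at 18 °C lay as high as the libraries at 29 °C and the other 3 lay below them all. The difference between 29 and 18 °C was 0.00813 (adjusted p = 0.0450), and 0.0108 without that replicate (adjusted p = 0.000844). 28S Gm1108 scored 0.973, 0.966, 0.966 and 0.967 at 18 °C, 0.966, 0.966, 0.975 and 0.970 at 25 °C and 0.975, 0.977, 0.976 and 0.973 at 29 °C, with all libraries at 29 °C above those at 18 °C. Its difference was 0.00732 (adjusted p = 0.0470). Both calls stood close to the threshold: each was lost in 9 of the 12 fits that left out 1 library, and both lost it when libraries were centred on their medians. Gm1108 also lost it on the log2 odds scale (adjusted p = 0.0716), where 28S Am1691 passed (0.0250). Gm74 passed in each of these fits. With centred libraries it was the only member called higher at 29 °C, and Am1017, Am1117 and Am1347 were called lower there.

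28S Am1691 missed the threshold between 29 and 18 °C at 0.0106 (adjusted p = 0.0502). It scored 0.978, 0.976, 0.987 and 0.969 at 18 °C, 0.984, 0.978, 0.980 and 0.974 at 25 °C and 0.990, 0.987, 0.989 and 0.988 at 29 °C. Replicate 3 at 18 °C again lay with the libraries at 29 °C. Without that replicate Am1691 and Gm1692 passed as well, at 0.0138 and 0.00961, Gm1108 did not (adjusted p = 0.0783), and the slope passed at 4 sites, Gm74, Cm1679, Am1691 and Gm1692. Replicate 3 at 18 °C is the library with the divergent 3′ ends at Gm1005; it had the highest score of its group at 7 of the 13 sites and the lowest at 4. Its coverage at Gm1005, 78275, was the lowest of the 4 libraries. The part these features play in the result was not tested. The difference at Gm1005 itself, 0.0499, did not pass, and was 0.00304 without replicate 3.

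Between 29 and 25 °C 0 of the 13 sites passed, where 6.94% of all positions passed as higher. An unadjusted limma p below 0.05 was found at 4 of the 13, and the share of all positions below it was not counted. The smallest p-values were at Am1691 (0.00956) and Cm1679 (0.00688), both with an adjusted p of 0.157, and the 4 libraries at 29 °C lay above the 4 at 25 °C at both. Groups did not overlap at 4 of the 13, Gm74, Cm1679, Am1691 and Gm1692, all higher at 29 °C, where 20.8% of all positions were higher without overlap. Without replicate 3 at 18 °C, which enters only through the common spread, both passed. Between 18 and 25 °C 0 of the 13 passed, where 1.39% of all positions passed as lower. An unadjusted limma p below 0.05 was found at 2 of the 13, again without a count over all positions. Gm74 differed by -0.00903 (adjusted p = 0.0989) and passed at -0.0113 without replicate 4 at 25 °C and at -0.0109 without replicate 3 at 18 °C. Cm813 differed by 0.0240 (adjusted p = 0.251), with scores of 0.921, 0.940, 0.965 and 0.928 at 18 °C and 0.935, 0.914, 0.908 and 0.901 at 25 °C, which overlap. At 0 of the 13 were the groups apart, where 5.56% of all positions were lower at 18 °C without overlap. These comparisons share the libraries at each temperature.

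**Figure D5:**
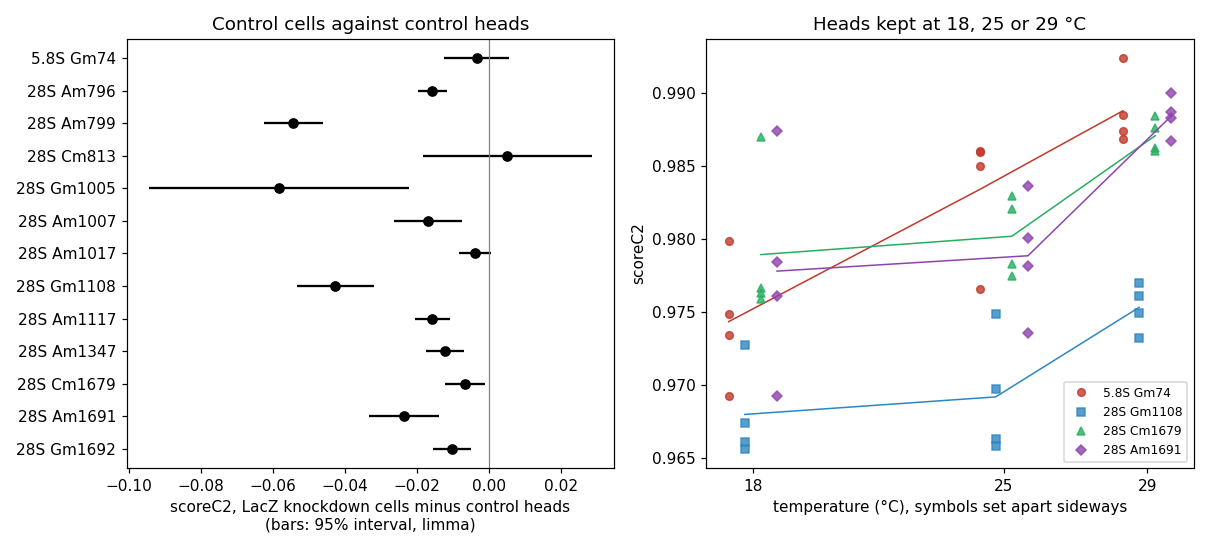
Left, difference in methylation score between LacZ knockdown cells and control heads (score units) with limma's 95% interval for each site; 10 of 13 lie below 0 with the interval, and with centred libraries 9 of 13 are higher instead. Right, methylation score of 4 sites in heads at 18, 25 and 29 °C (points are libraries, lines join group means); 5.8S Gm74 has no overlap between 29 and 18 °C, while 1 library at 18 °C lies high at 28S Cm1679 and 28S Am1691.

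On low-nutrient food 0 of the 13 sites passed against 1x food, where 4.17% of all positions passed as lower and 0% as higher. An unadjusted limma p below 0.05 was found at 4 of the 13. The share of all positions below that unadjusted limit was not counted. The smallest p-values were at Cm813 and Am1007. Cm813 scored 0.957, 0.953, 0.956 and 0.962 in low-nutrient heads and 0.931, 0.952, 0.932 and 0.903 in 1x heads, higher without overlap, with a difference of 0.0276 (adjusted p = 0.184). 28S Cm813 passed, with a difference of 0.0352, without replicate 2 of the 1x heads, the highest of them. Am1007 scored 0.963, 0.957, 0.959 and 0.931 in low-nutrient heads and 0.967, 0.971, 0.967 and 0.975 in 1x heads, lower without overlap, with a difference of -0.0175 (adjusted p = 0.288). Groups did not overlap at 1 of the 13 in the higher direction (Cm813) and at 2 in the lower (Am1007 and Gm1108), against 6.94% of all positions in each direction. All 13 intervals of the difference lay within 0.05 of 0, and 9 of them within 0.02.

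Replicate 4 of the low-nutrient heads had the lowest score of its group at 10 of the 13 sites. At 28S Am1017 it scored 0.944 with 411 3′ ends, against 67 to 128 in the other 3, while its 5′ ends numbered 2. Coverage there was 119116. Without this library Am1007 differed by -0.0102 (adjusted p = 0.0837) and Cm813 by 0.0258 (adjusted p = 0.234), so neither passed.

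Paraquat gave 0 of 13 sites past the threshold, where 0% of all positions passed. Of the 13, 0 had an unadjusted limma p below 0.05, and the share of all positions below it was not counted. Of the 13 differences, 11 were below 0, with a median of -0.00133 against -0.00135 over all positions. The smallest p-values were at Am1007, which scored 0.955, 0.948 and 0.942 in paraquat heads and 0.925, 0.939 and 0.943 in sucrose heads, and at Gm1692, which scored 0.991, 0.991 and 0.991 in paraquat heads and 0.994, 0.997 and 0.992 in sucrose heads. Their differences were 0.0125 (adjusted p = 0.529) and -0.00331 (adjusted p = 0.674). Groups did not overlap at 2 of the 13, Am1691 and Gm1692, both lower with paraquat, where 11.1% of all positions were lower without overlap. The intervals of 12 of the 13 differences lay within 0.02 of 0, the exception being Am1007 (-0.00215 to 0.0272).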

How the data were processed

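RiboMeth-seq tables of 34 libraries in 9 groups were used as deposited. Alkaline hydrolysis of 150 ng RNA lasted 16 min at 96 °C, and libraries were read in single reads of 50 bases, per the labels' protocols. Trimmomatic 0.39, Bowtie2 and the build dm6 are named per the submitters' processing notes; score formula, filters, alignment target and head RNA extraction were not given in the sources used here. For each site the authors deposited the methylation score (scoreC2) and 2 alternative scores. The deposited coverage and read-end signal are numbers of reads, not normalized; read ends are whole numbers with 0.1 standing for none.

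The linear score of each of the 72 positions entered limma 3.58.1 (lmFit, eBayes; R 4.3.3), two-sided, adjusted over all 72 by Benjamini-Hochberg at 0.05; only members' values are reported. The 3 temperatures shared 1 fit. Read ends were tested as log2 of 5′ plus 3′ ends per 1000 of coverage. Code was tested on simulated data. Alternatives were a log2 odds scale (offset 0.01), centring each library on its median, other score columns, a coverage minimum of 1000 in every library, blocks, library sets and leaving out each library. Intervals are limma's and cover the spread between libraries; single libraries have none, since the score formula is not known. Every site is named in the cell comparisons; in head comparisons, sites past the threshold and, with fewer than 2, the 2 of smallest p. The rule for the members used names and numbers only, but the rule and the lists were set with earlier results of these data known. Same-numbered Fib and LacZ knockdown libraries deviated together (r 0.165 to 0.574 over the 72 positions in all 4 pairs). So did differently numbered libraries of the same library set (r 0.463 to 0.519), so this does not show pairing by replicate number. The replicate number was also used as a block.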

Additional observations from a re-analysis of the deposited data

Results flagged for a closer look

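In 11 of 91 sets of 4 libraries, 1 set for each site and group, a single library stood apart from the others by Dixon's criterion; chance alone gives about 1 in 20. Replicate 4 on low-nutrient food was low at 4 sites: 28S Am1007 (0.931 against 0.957 to 0.963 in the other 3), 28S Am1017 (0.944 against 0.986 to 0.992 in the other 3), 28S Gm1108 (0.944 against 0.964 to 0.966 in the other 3) and 28S Am1117 (0.964 against 0.983 to 0.985 in the other 3). LacZ knockdown replicate 3 was low at 5.8S Gm74 (0.964 against 0.989 to 0.991 in the other 3) and at 28S Gm1005 (0.838 against 0.946 to 0.959 in the other 3). Replicate 3 at 18 °C was low at 28S Gm1005 (0.792 against 0.979 to 0.980 in the other 3) and high at 28S Cm1679 (0.987 against 0.976 to 0.977 in the other 3). Replicate 4 at 25 °C was low at 5.8S Gm74 (0.977 against 0.985 to 0.986 in the other 3), replicate 1 on 1x food was low at 28S Am796 (0.989 against 0.990 to 0.990 in the other 3), and replicate 1 on low-nutrient food was high at 28S Cm1679 (0.988 against 0.983 to 0.984 in the other 3).

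The Fib knockdown difference was deeper in set B of the libraries at 9 of 13 sites, by the interaction test in limma, where 55.6% of all positions were. On the log2 odds scale 1 of the 13 passed, and with centred libraries 3 passed in the other direction. On the deposited scale, set B minus set A was -0.0651 at 5.8S Gm74, -0.0618 at 28S Am796, -0.105 at 28S Am799 and -0.119 at 28S Cm813. It was -0.0505 at 28S Am1007, -0.0649 at 28S Gm1108, -0.0864 at 28S Am1117, -0.0754 at 28S Am1691 and -0.0461 at 28S Gm1692. The sets differ in library numbers and in coverage. Median coverage over all listed positions was 28370.5 to 36865 reads in the libraries of set A and 49642 to 67512 in those of set B. The part coverage plays in the difference, and what else differed between the sets, was not tested.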

How the results depend on the processing

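The Fib knockdown count stayed at 13 of 13 on the log2 odds scale, with both other scores, with either block and within each library set. It also stayed there with the coverage minimum and without any single library (13 to 13). With the replicate number as block it was 13 and no call changed. Read ends kept 13 with the block and without any single library. Centring on library medians moved the Fib knockdown count to 10 and turned 8 sites, those that fell by less than the library median itself (-0.145). The centred differences were 5.8S Gm74 0.0231, 28S Am796 0.0226, 28S Am799 0.00257 and 28S Gm1005 0.00164. The others were 28S Am1017 0.110, 28S Am1347 0.0298, 28S Cm1679 0.0579 and 28S Gm1692 0.0497. Of the 72 positions behind this median, 80.6% were lower with Fib knockdown. The median difference was -0.0110 over the 13 positions with no listed guide. It was -0.142 over the 13 members, -0.145 over the guided 28S sites above 2000 and -0.246 over the guided 18S sites. Why the median differed was not tested further. The same centring turned LacZ knockdown cells against control heads to 11 calls, 2 lower (Am799 and Gm1108) and 9 higher, namely 5.8S Gm74 0.0246, 28S Am796 0.0122, 28S Cm813 0.0332, 28S Am1007 0.0110, 28S Am1017 0.0241, 28S Am1117 0.0123, 28S Am1347 0.0158, 28S Cm1679 0.0214 and 28S Gm1692 0.0178; 28S Am1691 turned to 0.00433 without passing. Against 25 °C heads alone that count was 6, against sucrose heads alone Am1007 was 0.00424, and without single libraries the count was 9 to 11. The difference between library sets passed at 1 site on the log2 odds scale, at 3 in the other direction when centred (28S Am1017 0.0667, 28S Am1347 0.0436 and 28S Cm1679 0.0396), and at 5 to 12 without single libraries; 5 of the 9 called sites turned when centred, without passing, 5.8S Gm74 0.00544, 28S Am796 0.00873, 28S Am1007 0.0201, 28S Gm1108 0.00563 and 28S Gm1692 0.0245. Centring gave 4 calls for 29 against 18 °C and 4 for the slope, in each case 3 lower (Am1017, Am1117, Am1347) and Gm74 higher. Without single libraries, 29 against 18 °C had 1 to 4 calls, 29 against 25 °C 0 to 2, 18 against 25 °C 0 to 1, the slope 1 to 4, nutrition 0 to 1 and paraquat 0 to 0. In head comparisons same-numbered libraries did not all deviate together (r from -0.377 to 0.344); the block changed 29 against 18 °C to 2 calls, Gm74 and Am1691 (adjusted p = 0.0445), with Cm1679 (0.0644) and Gm1108 (0.0929) no longer past the threshold, and left the other head counts at 0. No block was fitted for the slope, and replicate numbers do not pair cells with heads. What depth limits in the score was not computed, since its formula is not known; read ends of each of the 48 replicate pairs differed beyond counting noise.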
